A study of Bombyx mori with 8 samples.

Results

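Fat body peak deserts are long stretches of silkworm (*Bombyx mori*) chromosome between neighbouring G-quadruplex peaks of the fat body, and the peaks that the brain has inside them are described here. G-quadruplexes (G4) are DNA structures folded from runs of guanines. On sequences 2 to 28 of the assembly, the peaks of both fat body lists were pooled, and each stretch of at least 500 kb between the end of a peak and the start of the next was kept as a desert. The deserts were thus chosen by where fat body peaks were not called, and stretches that run to the end of a sequence were left out. They numbered 64 and spanned 44.2 Mb, or 10.4% of the 423.5 Mb that these 27 sequences reach up to their last peak. Wholly inside them lay 4017 of the 38938 brain peaks on the same sequences. Brain replicate 1 gave 269 of 6440 and brain replicate 2 gave 3748 of 32498. Over all sequences the deposited lists hold 6759 and 33925 brain peaks.

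Both tissues came from wild-type larvae of strain P50 at the stage coded L5D3, and each was measured in 2 libraries by CUT&Tag with BG4, an antibody fragment against G4 structures, as the labels state. The series has 4 more samples, namely IgG, brain at stage P0 and 2 of BmN, a line of ovarian cells; they are not analysed here. Whether the replicates of a tissue came from different animals is not stated, and their spread may be technical. The number of reads is unknown, and the median fragment pileup at the summit was 49 and 66 in brain replicates 1 and 2 and 58 and 43 in fat body replicates 1 and 2.

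Before the results, 2 facts about the lists matter. Peak names in both fat body lists contain 1H6, another G4 antibody, although the labels give BG4; brain replicate 1 names contain BG4, and brain replicate 2 names contain no antibody clone. The stage text differs too: where the labels give L5D3 for all 4 libraries, every peak name of both brain lists and of fat body replicate 1 carries 5L4D in some spelling, and no name of fat body replicate 2 does. Groups follow the labels, and whether the fat body replicates share a stage was not tested. If these names are right, the deserts were set with a different antibody from brain replicate 1, and antibody and tissue cannot be told apart. Brain replicate 2 is by far the longer of the brain lists, and its peak names alone record removal of duplicate reads. Each result is therefore given for each brain replicate on its own.

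In CUT&Tag an antibody holds a Tn5 transposase at its target, and the enzyme cuts and tags the DNA nearby, so a peak marks a place where tagged fragments pile up over the local level. G4 structures need guanine runs and are detected mostly in open chromatin, often at promoters. The fat body is the insect organ of storage and intermediary metabolism, and the brain is built of neurons and glia, so the tissues use different genes and open different parts of the genome. No genome or annotation of the assembly used in the lists was at hand, so deserts and peaks are given by position, with no gene, sequence or motif.

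The deserts were spread over 25 of the 27 sequences, with none on sequences 4 and 20 and at most 6 on a sequence (sequences 6 and 13). Their median length was 615.9 kb, and 8 were at least 1000 kb long. Sequence 28 had the largest part of its length in deserts, 33.5%, followed by sequence 13 with 23.4% and sequence 6 with 20.8%. As the assembly numbers its bases, 42 of 64 deserts had their midpoint nearer the end than the start of the sequence. The shortest desert, on sequence 22 from 460726 to 961911, measured 501.2 kb and held 3 and 36 peaks of brain replicates 1 and 2. The longest gap that missed the limit, on sequence 28 from 6723529 to 7221435, measured 497.9 kb and held 2 and 52. Of the 128 desert edges, 50 (39.1%) were formed by a fat body peak found in both fat body lists, against 57.7% of all fat body peaks on these sequences. Edge peaks had a median −log10 q of 16.5, and all fat body peaks 21.0. These values are not counted alike. A place called in both fat body lists counts once as an edge, but once in each list among all fat body peaks. Neither pair of values therefore shows that edge peaks differ from other fat body peaks.

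The brain replicates differed from the rest of the sequences in opposite directions inside the deserts. Brain replicate 1 had 6.08 peaks per Mb there and 16.3 per Mb in the rest of the 27 sequences, a ratio of 0.374. Brain replicate 2 had 84.8 and 75.8 per Mb, a ratio of 1.12. The mean ratio was 0.746 ± 0.526 (SD, n = 2), so the replicates differed from each other by more than their mean differed from 1. With 2 brain libraries an exact sign-flip permutation test cannot give a p under 0.5, and none was run. Over counting error alone, the 95% exact binomial interval was 0.330 to 0.423 for replicate 1 and 1.08 to 1.16 for replicate 2. The ratio of replicate 2 was under 1 when weak peaks were dropped, at 0.991 over brain peaks whose −log10 q reached 20, and 0.938 when the list was cut to the length of replicate 1 by −log10 q.

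Much of the lower density in replicate 1 follows from the rule. A brain peak that overlaps a fat body peak cannot lie in a desert, and such peaks made up 3254 of the 6171 replicate 1 peaks in the rest, or 8.58 per Mb. In replicate 2 they made up 3450 of 28750, or 9.10 per Mb. When only brain peaks without fat body overlap were counted in the rest, replicate 1 had 7.69 per Mb and replicate 2 had 66.7 per Mb. The desert ratios then became 0.791 and 1.27, a mean of 1.03 ± 0.339 (SD, n = 2), with the replicates still on opposite sides of 1. The same comparison over peaks with a −log10 q of at least 20 gave 0.538 and 1.14, and with replicate 2 cut to the length of replicate 1 its ratio was 1.03.

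**Figure D1:**
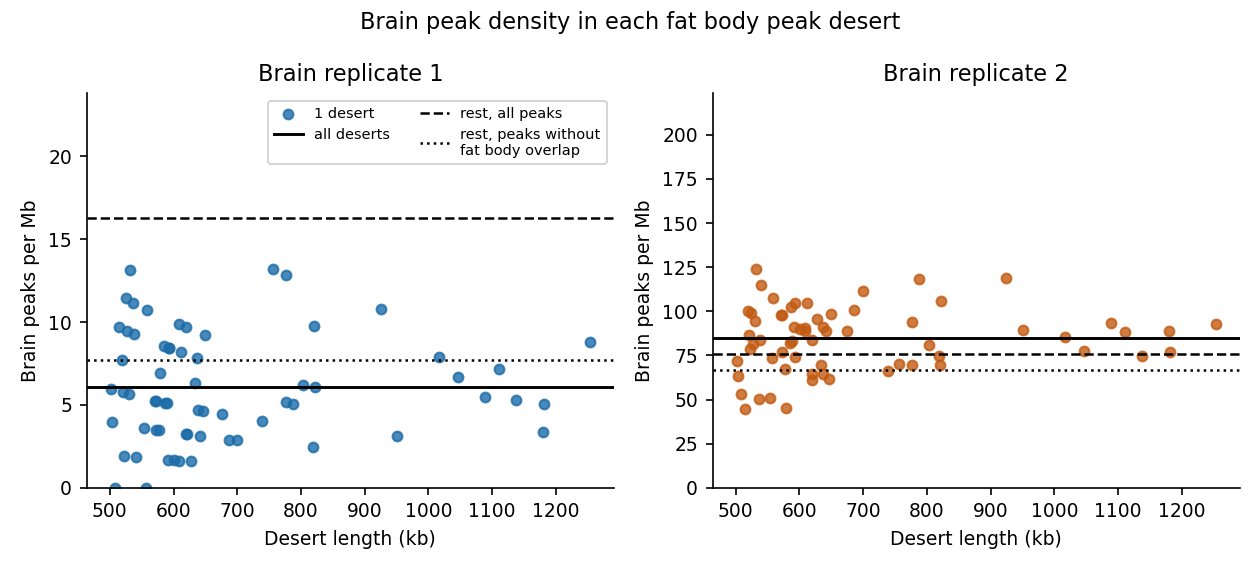
Brain peaks per Mb in each of the 64 deserts (points) against desert length in kb, for brain replicate 1 (left) and replicate 2 (right); lines give the density over all deserts (solid), over the rest of sequences 2 to 28 (dashed) and over the rest without peaks that overlap a fat body peak (dotted). All replicate 1 points lie under the dashed line at 16.3 per Mb, and replicate 2 points lie on both sides of 75.8 per Mb. In each replicate, points lie on both sides of the dotted line, at 7.69 per Mb in replicate 1 and 66.7 in replicate 2.

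Individual deserts varied several-fold in both lists. For replicate 1 the density ran from 0 to 13.2 peaks per Mb with a median of 5.39, and the quartiles were 3.45 and 8.47. Each desert held 0 to 11 of its peaks, with a median of 4, and 2 deserts on sequence 6 held none. All 64 deserts had a lower replicate 1 density than the rest of their own sequence. That rest includes peaks that overlap fat body peaks, which the rule bars from deserts, so much of this was fixed in advance. Rest peaks without such overlap had 7.69 per Mb over the 27 sequences, which is below the upper quartile of the deserts. For replicate 2 the density ran from 44.7 to 124.1 per Mb with a median of 86.0, and each desert held 23 to 116 peaks. It was above the rest of the same sequence in 46 deserts and below it in 18. Across the 64 deserts the densities of the replicates had a Spearman correlation of 0.0752, and desert length had one of -0.00332 with replicate 1 and 0.120 with replicate 2. These points share the same stretches and lists and are given as a description.

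By sequence, the replicate 1 ratio of deserts to the rest was under 1 on all 25 sequences that hold a desert, from 0.206 on sequence 23 to 0.674 on sequence 10. Against rest peaks without fat body overlap it was under 1 on 18 and over 1 on 7, with a median of 0.848. The replicate 2 ratio was over 1 on 19 of 25 sequences, and on 22 against rest peaks without fat body overlap, where the median was 1.26. Sequence 2, with a single desert of 553.2 kb, had the lowest replicate 2 ratio, 0.563.

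The 3 deserts with the highest replicate 1 density lay on sequence 10 from 16111546 to 16868120 (10 peaks, 13.2 per Mb), sequence 21 from 5357 to 537294 (7 peaks, 13.2 per Mb) and sequence 12 from 12492442 to 13269633 (10 peaks, 12.9 per Mb). The same 3 held 53, 66 and 73 replicate 2 peaks, or 70.1, 124.1 and 93.9 per Mb. The desert at the start of sequence 21, second in replicate 1, ranked first in replicate 2. All 7 of its replicate 1 peaks fell in regions found in both brain lists. Over all deserts, 183 of 269 replicate 1 peaks (68.0%) were overlapped by replicate 2. Other deserts also had every replicate 1 peak in such a region, as did that on sequence 18 with 8 of 8. In replicate 2 the next highest densities were on sequence 21 from 5969013 to 6893924 (118.9 per Mb) and sequence 28 from 7709921 to 8497721 (118.1 per Mb). The first of these had 10 replicate 1 peaks and 9 regions of both brain lists, and the second had 4 and 2.

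At the other end, the deserts on sequence 6 from 4188959 to 4746002 and from 14825845 to 15334214 held no replicate 1 peak and 41 and 27 replicate 2 peaks. Sequence 13 from 15141118 to 15768339 held 1 replicate 1 peak and 60 of replicate 2, at 95.7 per Mb. The lowest replicate 2 densities were on sequence 16 from 10054910 to 10569848 (23 peaks, 44.7 per Mb), sequence 19 from 8068327 to 8646566 (26 peaks, 45.0 per Mb) and sequence 11 from 14849083 to 15385832 (27 peaks, 50.3 per Mb). These 3 had 9.71, 6.92 and 11.2 replicate 1 peaks per Mb, above the replicate 1 median of all deserts. These densities rest on only 5, 4 and 6 peaks, against a median of 4 per desert, so no contrast between the replicates is drawn from them.

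Among the 5 longest deserts, replicate 1 density ran from 3.39 per Mb on sequence 13 (4 peaks in 1180.6 kb) to 8.78 on sequence 25 (11 peaks in 1253.5 kb). Replicate 2 had 88.9 and 92.5 per Mb in those 2 deserts. The desert of 1181.4 kb on sequence 12 had 77.0 replicate 2 peaks per Mb against 76.1 in the rest of its sequence, and that of 1136.9 kb on sequence 26 had 74.8 against 80.5. The longest deserts thus lay inside the range of the others in both lists. Replicate 2 peaks followed each other at a median distance of 8.12 kb in the deserts and 8.96 kb in the rest, and the longest run without one between 2 of its peaks in a desert was 146.6 kb. The corresponding replicate 1 distances were 73.9 and 35.7 kb, with a longest run of 613.8 kb.

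The desert limit of 500 kb lies on a gradient. All gaps between pooled fat body peaks were sorted by length, and brain peaks wholly inside a gap were counted, which leaves out peaks that overlap a fat body peak in every class alike. Replicate 2 had 55.3 peaks per Mb in gaps under 50 kb, 65.2 at 50 to 100 kb, 72.6 at 100 to 200 kb, 76.0 at 200 to 300 kb, 83.5 at 300 to 500 kb and 84.8 in the deserts. Replicate 1 stayed between 7.12 and 8.30 per Mb in the 5 shorter classes and had 6.08 in the deserts. A peak fits less often in a short gap, and densities over the length in which a peak of the list's mean width fits were 57.4 and 84.8 per Mb for replicate 2 in gaps under 50 kb and in the deserts, and 8.09 and 6.09 for replicate 1.

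**Figure D2:**
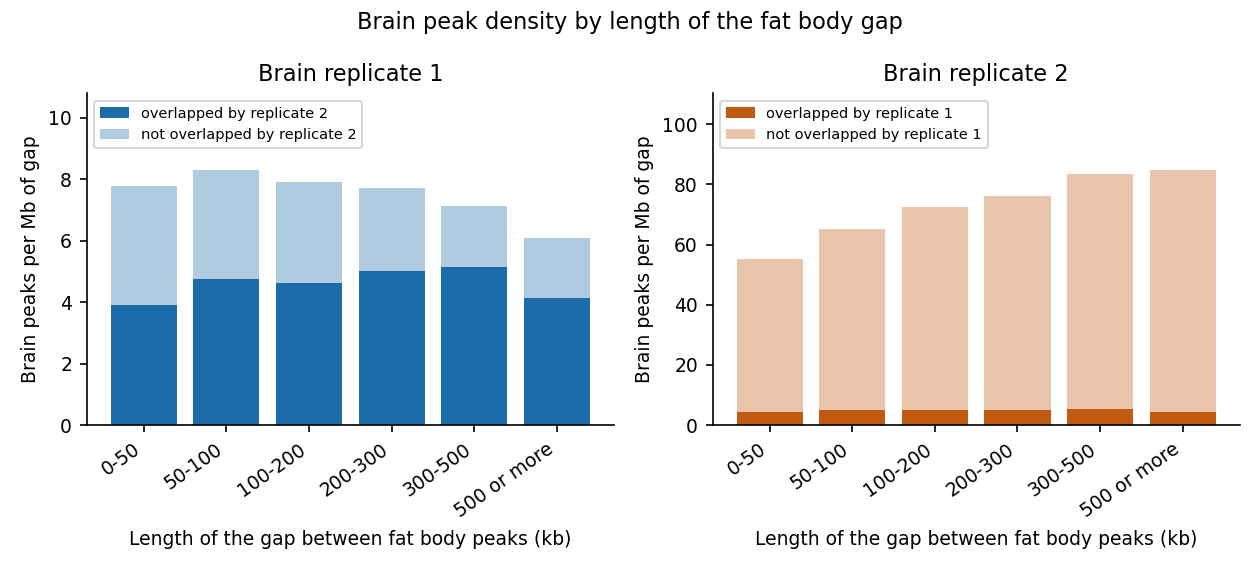
Brain peaks per Mb of gap (y axis) by length of the gap between neighbouring fat body peaks in kb (x axis), for brain replicate 1 (left) and replicate 2 (right), with each bar divided into peaks overlapped (dark) and not overlapped (light) by the other brain replicate. Replicate 2 goes from 55.3 to 84.8 per Mb from the shortest gaps to the deserts, and the light part of replicate 1 goes from 3.86 to 1.95.

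Splitting the peaks by overlap with the other brain replicate showed which ones followed this gradient. Replicate 1 peaks not overlapped by replicate 2 went down from class to class, from 3.86 per Mb in gaps under 50 kb to 3.54, 3.27, 2.69, 1.99 and 1.95 in the deserts. Replicate 1 peaks overlapped by replicate 2 showed no such course, with 3.92, 4.75, 4.63, 5.02, 5.13 and 4.14 per Mb. Replicate 2 peaks not overlapped by replicate 1 went up from 51.0 to 80.6 per Mb. Between gaps under 50 kb and the deserts, peaks found in both brain lists thus had much the same density. Peaks of a single list went down in replicate 1 and up in replicate 2. The last step differed in replicate 1. From gaps of 300 to 500 kb to the deserts, its overlapped peaks went from 5.13 to 4.14 per Mb, and the others only from 1.99 to 1.95. Replicate 2 peaks covered 4.39% of the bases in deserts, against 3.57% of the rest for those without fat body overlap and 3.97% for all, and the part of this in the replicate 1 overlap was not tested.

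The same course was seen by distance from the nearest fat body peak. In gaps under 500 kb, replicate 2 had 55.9 peaks per Mb within 10 kb of a fat body peak, 68.0 at 10 to 25 kb, 72.8 at 25 to 50 kb, 78.5 at 50 to 100 kb and 84.3 at 100 to 250 kb. In the deserts it had 72.7 per Mb in the outermost 10 kb, from 93 peaks, and 85.7 per Mb beyond 250 kb, from 1047 peaks. Replicate 1 had between 7.43 and 8.47 per Mb at every distance in the shorter gaps. Its desert densities lay between 5.00 and 7.03 per Mb, and were 7.03 within 10 kb (9 peaks) and 5.98 beyond 250 kb (73 peaks).

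The share of brain peaks overlapped by the other brain replicate differed between deserts and the rest, in opposite directions in the replicates. Of all peaks on the 27 sequences, 60.2% of replicate 1 were overlapped by replicate 2 by at least 1 bp, and 12.4% of replicate 2 were overlapped by replicate 1. In the deserts 183 of 269 replicate 1 peaks were overlapped, or 68.0% (95% exact binomial interval 62.1% to 73.6%), against 59.9% in the rest and 58.5% (56.6% to 60.3%) of rest peaks without fat body overlap. For replicate 2 it was 185 of 3748, or 4.94% (4.26% to 5.68%), against 13.4% in the rest and 7.11% (6.79% to 7.43%) without fat body overlap. These intervals cover counting error only, and peaks of 1 library are not replicates. Regions of both brain lists had 4.14 per Mb in the deserts and 4.49 per Mb in the rest without fat body overlap. The shares against those rest peaks thus differ mainly through the number of all peaks of each list. They largely restate the density ratios and are not a separate result. In the rest, replicate 2 peaks that overlapped a fat body peak were overlapped by replicate 1 in 59.3% of cases, so most of the step down from 13.4% comes from leaving those peaks out. The difference of 8.12 percentage points in replicate 1 was 1.065 when replicate 2 was cut to the length of replicate 1, 3.86 when 50% of the shorter peak had to overlap and 3.42 when summits had to lie within 250 bp.

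Peaks in deserts had a lower median −log10 q than rest peaks without fat body overlap. It was 11.6 against 13.5 in replicate 1 and 20.6 against 24.0 in replicate 2. In replicate 1, peaks of lower −log10 q were shared less often. The shares were therefore set side by side within ranges of −log10 q. The median fold of replicate 1 went the other way, 5.11 against 4.76, so peaks of like −log10 q need not be alike in fold. At 5 to 10, 60.6% of 104 desert peaks and 43.5% of 850 rest peaks without fat body overlap were overlapped by replicate 2. At 10 to 20 the shares were 64.3% of 112 and 55.2% of 1222, at 20 to 50 they were 90.2% of 41 and 75.2% of 693, and at 50 or more 91.7% of 12 and 92.1% of 152. The desert share was higher in the first 3 ranges, and the fourth held 12 desert peaks. For replicate 2 the desert share was lower in all 4 ranges, at 1.45%, 2.91%, 7.47% and 6.93% against 3.24%, 4.64%, 10.0% and 8.46%.

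**Figure D3:**
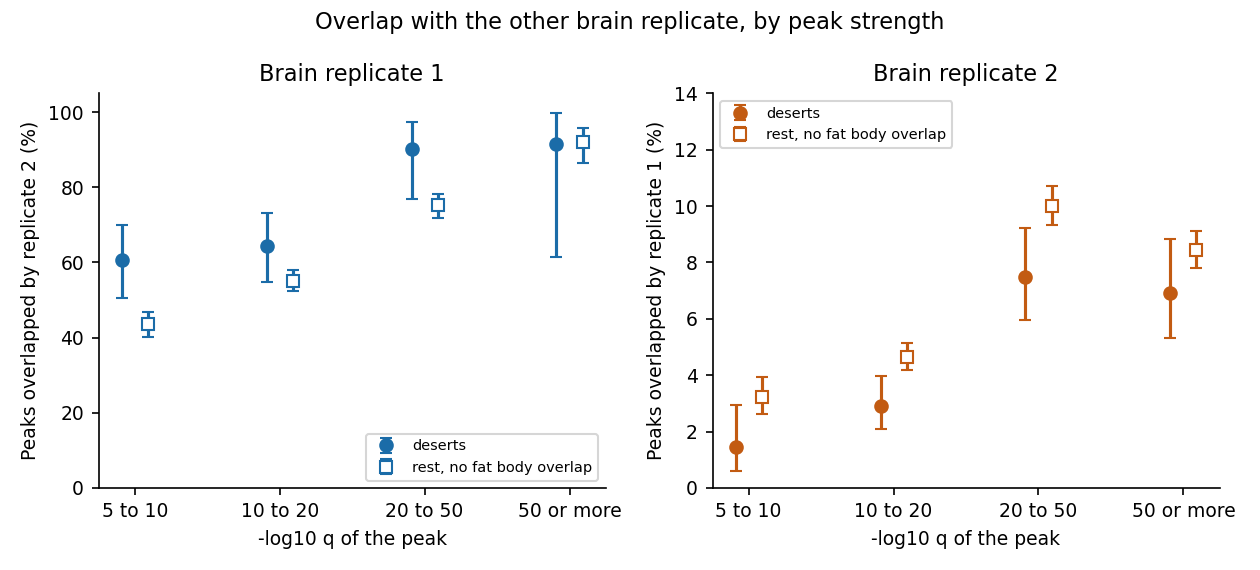
Percent of brain peaks overlapped by the other brain replicate (y axis) in 4 ranges of −log10 q (x axis), in the deserts (filled circles) and among rest peaks without fat body overlap (open squares), with 95% exact binomial intervals, for replicate 1 (left) and replicate 2 (right; its axis ends at 14%). Desert shares are higher in the first 3 ranges of replicate 1, as with 60.6% against 43.5% at 5 to 10, and lower in every range of replicate 2.

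The median width in the deserts was 432 bp in replicate 1 and 398 bp in replicate 2, against 498 and 405 bp in the rest, a mean difference of -36.5 ± 41.7 bp (SD, n = 2) that is smaller than its spread. Over peaks with a −log10 q of 20 or more the difference was -104 bp in replicate 1 and turned to 60 bp in replicate 2, which was also 36 bp at the length of replicate 1. Rest peaks without fat body overlap had medians of 439 and 416 bp, and those with overlap 564 and 359 bp. Against the former, the desert medians differed by -7 and -18 bp. The quartiles of desert peaks, 366 and 544 bp in replicate 1 and 280 and 708 bp in replicate 2, were likewise close to the 355 and 573 bp and the 285 and 744 bp of rest peaks without fat body overlap. In replicate 1 the rest peaks at fat body peaks thus had the largest median width.

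The authors' fold enrichment, the summit's height over the local background, had a median in the deserts of 5.11 in replicate 1 and 4.76 in replicate 2. Rest peaks without fat body overlap had 4.76 and 5.15. Peaks with a fold above 12 are wide peaks in replicate 2. They numbered 265 of 3748 (7.07%) in the deserts and 2634 of 25300 (10.4%) among rest peaks without fat body overlap. In replicate 2 they had 5.99 per Mb in deserts and 7.20 per Mb in all of the rest, a ratio of 0.832, whereas replicate 2 peaks with a fold of at most 12 had 78.8 and 68.6 per Mb, a ratio of 1.15. Those with a fold above 12 had a median width of 841 bp in the deserts. Of these 265, 11 (4.15%) were overlapped by replicate 1, close to the 4.94% of all replicate 2 desert peaks. Among rest peaks without fat body overlap, the shares were 1.48% of those with a fold above 12 and 7.11% of all. Replicate 1 had no peak with a fold above 12 in a desert, and 28 of 6171 in the rest. The higher replicate 2 density of the deserts thus lay in its peaks of lower fold.

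For each brain peak, the number of fragments at the summit (pileup) and in the local background was solved from the fold and the −log10 p that the authors deposited. In replicate 1 the median background of desert peaks was 6.27 fragments against 8.25 in rest peaks without fat body overlap, and the median pileup 31 against 41 fragments. In replicate 2 the background was 13.4 against 12.2 fragments, and the pileup 63 against 67. By gap length, the replicate 1 background went down from 8.87 fragments in gaps under 50 kb to 7.60 at 300 to 500 kb and 6.27 in the deserts. The replicate 2 background was 11.9 fragments in gaps under 50 kb, lowest at 50 to 100 kb with 11.4, and 13.4 in both of the longest classes. Between the shortest gaps and the deserts, the background at called peaks thus went the same way as peak density in each replicate, but not from each class to the next. It is known only where a peak was called, so it is not the fragment level of a whole gap or desert. Whether a control library entered it is not given, and its part in the densities was not tested.

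**Figure D4:**
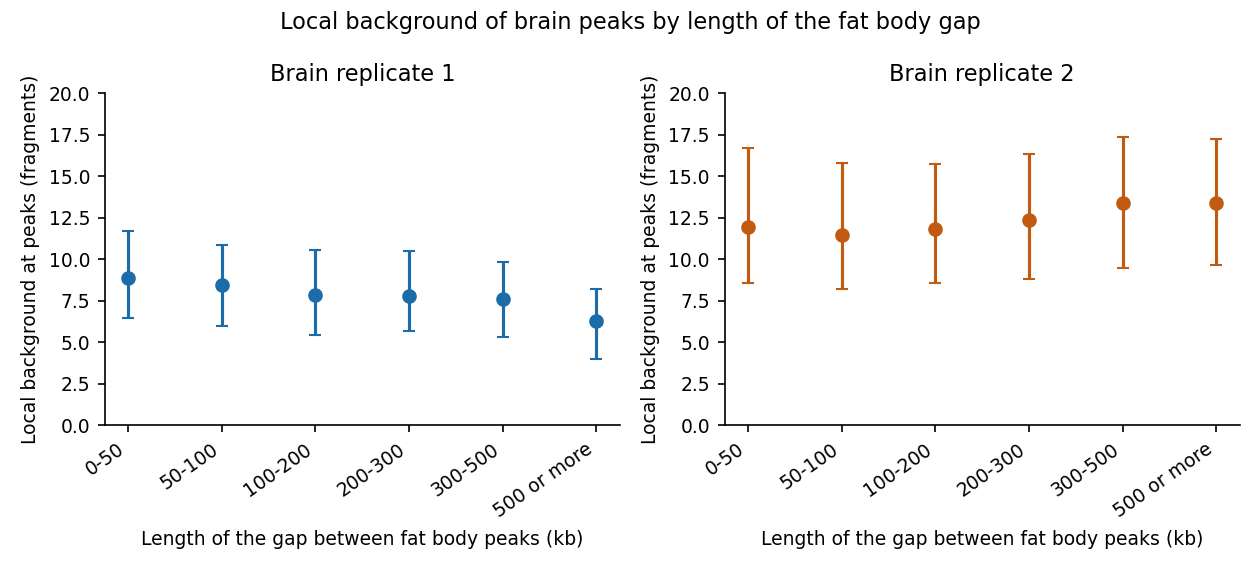
Median local background at brain peaks in fragments (y axis; bars are quartiles over peaks) by length of the gap between neighbouring fat body peaks in kb (x axis), for brain replicate 1 (left) and replicate 2 (right). The median goes from 8.87 to 6.27 fragments in replicate 1 and from 11.9 to 13.4 in replicate 2.

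Regions found in both brain lists were formed by joining overlapping peaks of the replicates. The deserts held 183 of them, in 61 of the 64 deserts and at most 9 in a desert, and each is without fat body peaks by the rule. They made up 9.71% of the 1885 such regions without fat body overlap on the 27 sequences, close to the 10.4% of length that is desert. Their density was 4.14 per Mb in the deserts and 4.49 per Mb in the rest. The regions had a median width of 543 bp (305 to 1607 bp), median folds of 5.24 and 6.06 and median pileups of 34 and 82 fragments in replicates 1 and 2. Their median distance from the nearer desert edge was 169.5 kb, and the farthest lay 525.6 kb from any fat body peak.

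Regions of both lists were ranked by the smaller of their folds in replicates 1 and 2. The first was on sequence 25 from 12974066 to 12974544, 29.2 kb from the edge of the longest desert. It had folds of 11.8 and 12.5 in replicates 1 and 2 over backgrounds of 6.61 and 9.53 fragments. Close behind was sequence 28 from 6194422 to 6194982, with folds of 11.4 and 12.6 and pileups of 116 and 174 fragments. It lies 503.9 kb from the nearest fat body peak, near the middle of a desert of 1046.5 kb. Sequence 5 from 18499734 to 18500501 had folds of 9.76 and 9.55 and the highest pileups of the 10 named regions in replicate 1, 169 fragments, with 204 in replicate 2. Both lists thus had at least 89 fragments at each of these 3 summits.

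The next 2 regions rested on few fragments in replicate 1. Sequence 21 from 8083596 to 8084267 had a fold of 9.21 from 18 fragments over a background of 1.06 in replicate 1, and a fold of 33.5 from 276 fragments in replicate 2. Sequence 19 from 8280938 to 8281334 had the same fold of 9.21 in replicate 1, from 18 fragments over the same background of 1.06. In replicate 2 it had a fold of 12.1 from 34 fragments. The median background of replicate 1 desert peaks was 6.27 fragments, so the rank of these 2 regions rests on a very low background. Next were sequence 28 from 8921204 to 8921731 (folds 9.06 and 10.3, pileups 71 and 188) and sequence 13 from 15453624 to 15454193 (folds 10.1 and 8.81, pileups 143 and 193). Each of these 2 regions holds the only replicate 1 peak of its desert, and the desert on sequence 13 is among the 3 poorest in that list.

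The remaining 3 named regions had folds between 8.38 and 9.72 in both lists. They were sequence 18 from 14864437 to 14865146 with pileups of 44 and 91 fragments, sequence 11 from 17017601 to 17018146 with 24 and 35, and sequence 25 from 13185220 to 13186687 with 104 and 145. The last is the widest of the 10 at 1468 bp, and joins 1 replicate 1 peak of 1467 bp with 2 peaks of replicate 2.

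Some desert peaks of high fold were found in 1 brain list. The replicate 2 peak with the highest fold of these was on sequence 2 from 2049642 to 2050976, with a fold of 44.2 from 1489 fragments over a background of 32.7 and a width of 1335 bp. The nearest replicate 1 peak was 14.5 kb away. Its replicate 1 counterpart, on sequence 17 from 14128290 to 14129021, had a fold of 8.995 from 21 fragments over a background of only 1.45. The −log10 q of this replicate 1 peak was 15.5, and a replicate 2 peak lay 0.845 kb from it. The fold of the replicate 2 peak was thus higher than that of any region in both lists, and replicate 1 had no called peak there.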

How the data were processed

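Peak lists of 4 CUT&Tag libraries were used, 1 list per library and none pooled. The tools were MACS2 2.1.0, deepTools 3.3.0, Bowtie2, Trim Galore and Picard, per the submitters' processing notes; order, settings and a build name are not given in the sources used here, and the lists name the assembly only through the accessions of its sequences. For each peak of the deposited narrowPeak lists the authors give a score, a fold (ratio of summit to local background), −log10 p and −log10 q; every list stops at a q of 1e-05. The members and comparisons were chosen with earlier results of these data known. Gaps between pooled fat body peaks, containment and overlaps (at least 1 bp) were computed in Python 3.11.15 with pandas 2.3.3 and scipy 1.17.1. Sequence length was taken as the end of the last peak of any list. Pileup and background were solved from fold = (pileup + 1)/(background + 1) and the Poisson upper tail; in each list 100% of pileups were whole numbers to within 0.02. The functions were tested on simulated data. No test was run, since an exact sign-flip permutation test over 2 brain libraries cannot give a p under 0.5. Coordinates are 1-based. Named regions are the 5 longest deserts, the 3 highest and lowest by density in each brain list, and those next to the length limit. They further include the 10 regions of both brain lists with the highest smaller fold, and the unshared peak of highest fold in each list. Alternatives changed the length limit, peak strength, edges, the rest, overlap rule and replicates.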

Additional observations from a re-analysis of the deposited data

How the results depend on the processing

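The mean density ratio and the mean width difference moved by less than the spread between replicates under each alternative run. This spread is wide, and leaving out a brain replicate cannot move a mean by that much, so stability is not shown. The mean ratio went from 0.746 to 1.03 against rest peaks without fat body overlap. The mean hides opposite moves of the replicates in width, from -66 and -7 bp to -104 and 60 bp at a −log10 q of at least 20, and it turned to 1.5 bp with rest peaks without fat body overlap and replicate 2 cut to the length of replicate 1. The replicate 1 density ratio stayed under 1 throughout. It was 0.436 with a desert limit of 750 kb, 0.166 over brain peaks with a −log10 q of at least 20, 0.791 against rest peaks without fat body overlap (also with replicate 2 shortened) and 0.538 with both of these choices on overlap and q. The replicate 2 ratio was 1.07 against the rest within 500 kb of a desert and 1.27 against rest peaks without fat body overlap. It turned to 0.991 at a −log10 q of at least 20 and to 0.938 at the length of replicate 1, and was 1.03 at that length against rest peaks without fat body overlap. The count of 183 regions of both brain lists became 448 and 80 at limits of 300 and 750 kb, 399 with fat body peaks of −log10 q of at least 20, 47 with such brain peaks, 38 at equal brain list lengths, and 309 to 327 without a fat body replicate. The overlap difference of replicate 1 was 23.4 percentage points at a −log10 q of at least 20, 14.95 with the overlap rule added, 1.065 and 0.757 at equal lengths without and with it, and 3.86 and 3.42 with 50% overlap and with summits within 250 bp. That of replicate 2 was -7.28 at 750 kb, -7.23 with summits within 250 bp, -9.375 for folds of at most 12, and -2.17, -2.055 and -1.325 against rest peaks without fat body overlap, alone, with the q limit and at equal lengths. The settings on fold, on equal lengths and on joint choices were chosen after seeing the data. Each ratio and difference is taken within 1 brain library, and with no test run no replicate block was fitted. The read depth, which sets the weakest peak that can be found, is unknown, and no cause of a change was tested.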

Other observations

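Turning the comparison round, brain replicate 1 has 23 stretches of at least 500 kb between its own peaks on sequences 2 to 28, 12.9 Mb in all and at most 666.4 kb long. Fat body replicates 1 and 2 had 5.03 and 2.94 peaks per Mb there, against 20.1 and 13.9 per Mb in the rest, ratios of 0.250 and 0.212. Part of this follows from the rule, since the rest holds the fat body peaks at brain replicate 1 peaks: without those that overlap one, the rest had 13.35 and 6.995 per Mb, and the ratios were 0.377 and 0.420. Brain replicate 2 had 77.9 and 76.7 per Mb, a ratio of 1.02, or 1.16 against its rest peaks without such overlap, and its median peak width was 446 bp against 403 bp. Of the bases in these stretches, 31.6% also lay in a fat body desert, against 10.4% of the length of sequences 2 to 28. Brain replicate 2 has no stretch of 500 kb without a peak, and its longest is 204.1 kb. Taken alone, fat body replicates 1 and 2 have 95 and 101 deserts, spanning 66.7 and 70.1 Mb. This comparison was chosen after seeing the data and was not tested.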
